A study of Mus musculus with 6 samples.

Results

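The core circadian clock of the kidney was described through 10 genes, Arntl, Clock, Per1, Per2, Cry1, Nr1d1, Bhlhe40, Bhlhe41, Dbp and Tef. They were found by their symbols in the deposited count table, where Arntl is the gene also called Bmal1. All 10 were present among 54532 named genes, and all 10 were among the 15225 that passed the filter on low counts. Kidneys labelled Lpar3-/-, by that label from mice without lysophosphatidic acid receptor 3, were set against kidneys labelled WT. Each group had 3 libraries, all from mice kept for 12 h in a chamber at 8% oxygen, so no comparison with normal air was made. Age, sex, strain, the time of day of collection and how the Lpar3 allele was made are not stated in the labels. The labels do not say that libraries of a group came from separate animals, so the p-values measure the spread between these libraries, which may be technical.

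The clock is a set of feedback loops of transcription. CLOCK and ARNTL bind as a pair to E-boxes and switch on the Per, Cry, Nr1d, Bhlhe and Dbp genes, and the PER and CRY proteins then block that pair. REV-ERB alpha, made from Nr1d1, represses Arntl, whereas the ROR proteins activate it through the same sites. DBP and TEF carry the rhythm to output genes through D-boxes. BHLHE40 and BHLHE41, also called DEC1 and DEC2, compete for E-boxes and are known as hypoxia-inducible genes. In mouse kidney, levels of Arntl and Dbp swing in opposite phase over the day.

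Libraries held 16011804 to 17991881 counts, and mitochondrially encoded genes took 6.80% to 7.97% of the counts of named genes. Lpar3 itself was at 36.4 ± 2.51 CPM (counts scaled to the library total) in the libraries labelled Lpar3-/- and 36.3 ± 1.31 CPM in WT (SD, n = 3 each). The counts are per gene and do not show whether an exon was missing, so every direction below rests on the labels. Markers of proximal tubule, thick ascending limb, distal tubule, collecting duct and podocyte were present in all libraries, apart from Avpr2, which was too low to test. Of 6 adrenal cortex markers, Cyp11b1 and Cyp21a1 were at 0 counts in every library. The others were detected, with up to 87 counts for a gene in a library, and 1 of the 6 was tested. The 6 summed to 4.27 to 5.43 CPM in the libraries labelled Lpar3-/- and 4.29 to 5.62 CPM in WT. WT replicate 2 was most often outermost. It was the highest or the lowest of the 6 libraries for 42.4% of the genes tested, and for 8 of the 10 clock genes. WT replicate 3 was outermost for 39% of the genes tested, but for 0 of the 10 clock genes. The share of genes tested was 27.7% to 30.5% in the other libraries. The macrophage markers of WT replicate 2 (6 genes) summed to 439 CPM. The libraries labelled Lpar3-/- lay at 192 to 217 CPM and the other WT libraries at 213 and 232 CPM. Cd74 alone made up 345 of the 439 CPM, and had 123.4 to 143.4 CPM in the libraries labelled Lpar3-/- and 139 and 149 CPM in the other WT libraries.

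Promoters of 8 of the 10 genes were matched by symbol in RefSeq on GRCm38.p6, with 250 bases before and 50 after each start site, and those of Bhlhe40 and Per2 were not matched. The 4 printed here each hold an element through which clock proteins act, and stand for the positive limb (Arntl), the negative limb (Per1 and Bhlhe41) and the outputs (Tef). Capitals mark an E-box (CACGTG), a D-box (TTATGTAA or TTATGCAA) or a REV-ERB/ROR element (TAGGTCA), searched on both strands, and every sequence reads along its gene.
Arntl, chr7:113207261-113207560, plus strand: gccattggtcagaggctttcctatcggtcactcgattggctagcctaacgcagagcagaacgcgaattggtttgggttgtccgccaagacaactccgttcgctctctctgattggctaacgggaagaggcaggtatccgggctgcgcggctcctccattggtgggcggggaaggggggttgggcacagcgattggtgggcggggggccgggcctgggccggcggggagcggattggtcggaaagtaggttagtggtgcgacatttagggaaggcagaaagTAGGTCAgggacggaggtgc
Per1, chr11:69098699-69098998, plus strand: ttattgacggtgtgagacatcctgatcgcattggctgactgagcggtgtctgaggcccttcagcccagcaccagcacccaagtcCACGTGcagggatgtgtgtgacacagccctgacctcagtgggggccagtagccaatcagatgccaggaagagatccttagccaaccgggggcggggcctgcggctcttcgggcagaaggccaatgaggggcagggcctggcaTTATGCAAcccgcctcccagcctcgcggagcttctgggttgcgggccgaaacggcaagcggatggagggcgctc
Tef, chr15:81802423-81802722, plus strand: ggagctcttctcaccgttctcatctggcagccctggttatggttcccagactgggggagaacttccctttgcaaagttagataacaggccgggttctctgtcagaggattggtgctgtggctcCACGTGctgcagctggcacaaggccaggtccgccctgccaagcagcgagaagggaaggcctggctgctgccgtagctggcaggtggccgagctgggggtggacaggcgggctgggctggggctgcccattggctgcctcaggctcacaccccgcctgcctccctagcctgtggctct
Bhlhe41, chr6:145865371-145865670, minus strand: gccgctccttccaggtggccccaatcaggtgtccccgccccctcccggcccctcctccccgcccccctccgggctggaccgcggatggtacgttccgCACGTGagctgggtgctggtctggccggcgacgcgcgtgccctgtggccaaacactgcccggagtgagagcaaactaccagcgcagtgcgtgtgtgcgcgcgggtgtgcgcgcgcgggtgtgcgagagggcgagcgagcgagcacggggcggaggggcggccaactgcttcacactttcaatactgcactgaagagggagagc

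Matches to the E-box were found in promoters of 4 of the 8 genes, Per1, Cry1, Bhlhe41 and Tef, against 8.09% of all 27025 genes with a promoter in the table. A gene with several start sites had several windows. By window, the E-box occurred in 5 of the 13 of these genes, against 7.15% of all 32851. The D-box letters occurred in Per1 alone of the 8 (1.98% of all genes), and the REV-ERB/ROR letters in Arntl alone (2.97%). They lay 30 bases after the start site of the Arntl window printed above, and another Arntl window held no match. The core of the hypoxia element, ACGTG, which also lies inside every E-box, occurred in 6 of the 8 genes (21.8% of all genes). By window this was 7 of 13, against 19.6% of all windows. The letters of a glucocorticoid element, ACANNNTGT, occurred in 0 of the 8 (7.90% of all genes). These matches describe letters in a short window and were not tested as binding sites.

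Across the 10 genes, 1 passed the test between the groups: Bhlhe40 fell where the label was Lpar3-/-. A gene passed at an adjusted p below 0.05 in edgeR's quasi-likelihood test (Benjamini-Hochberg). Over all genes, 0.374% passed (57 of 15225), 0.125% in the higher and 0.25% in the lower direction. An unadjusted p under 0.05 was reached by 3 of the 10, against 9.18% of all genes. Of these, 1 was higher (3.97% of all genes) and 2 were lower (5.21%). For 2 of the 10, Bhlhe40 and Per2, the groups did not overlap, with all libraries labelled Lpar3-/- below all WT libraries, against 13.7% of all genes without overlap in either direction and 7.12% in this one. All libraries labelled Lpar3-/- lay above WT for 0 of the 10, against 6.58% of all genes. Log2 fold changes were positive for 5 and negative for 5, with a median of 0.0053, against -0.0036 over all genes. With 10 genes, these shares are counts only.

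**Figure D1:**
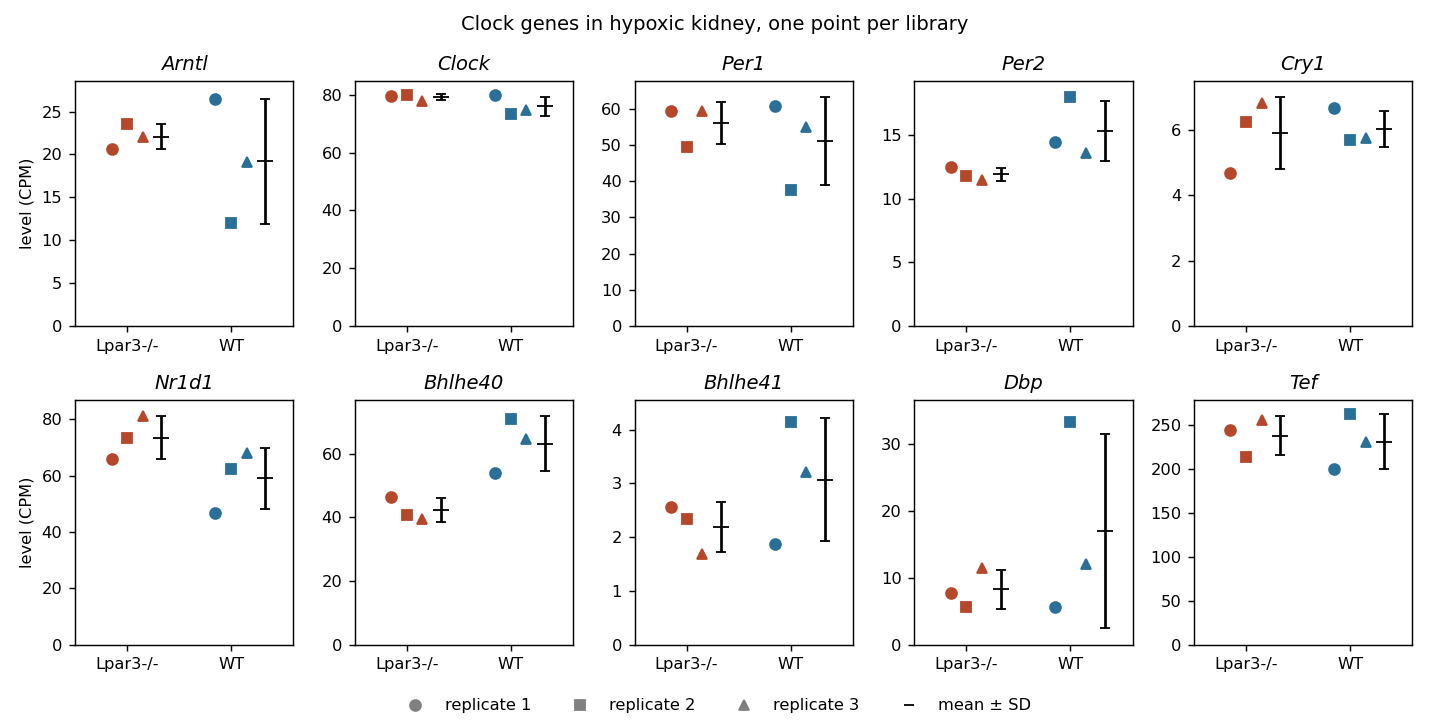
Level of each clock gene in CPM (y axis, from 0, on a scale of its own per gene) by group (x axis), with 1 point per library and the mean ± SD in black (n = 3 each). Bhlhe40 and Per2 lie lower in all libraries labelled Lpar3-/-, while WT replicate 2 is the lowest library for Arntl, Clock and Per1 and the highest for Per2, Bhlhe40, Bhlhe41, Dbp and Tef.

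Per length of gene, Tef had the highest level of the 10. In the authors' FPKM (fragments scaled to gene length and library total), Tef had a mean of 29.5 over the 6 libraries, followed by Nr1d1 (21.3), Bhlhe40 (11.1), Per1 (9.44), Clock (5.61), Dbp (4.18), Arntl (2.72), Per2 (2.31), Cry1 (1.77) and Bhlhe41 (0.388). The ranges over the 6 libraries were apart between Nr1d1 and Bhlhe40, between Per1 and Clock, and between Cry1 and Bhlhe41. Every other neighbouring pair in this order overlapped. All other levels below are CPM and are compared between libraries for the same gene.

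The activators Arntl and Clock did not pass the test. Arntl, on chromosome 7 (GRCm38, 113207465 to 113314126, plus strand), had 20.6, 23.6 and 22.1 CPM in replicates 1 to 3 labelled Lpar3-/-, against 26.5, 12.0 and 19.1 CPM in WT. All libraries labelled Lpar3-/- lay inside the WT range, which spanned both the highest and the lowest library. The fitted log2 fold change, 0.20, had an SE of 0.21 (95% interval -0.26 to 0.66, edgeR adjusted p = 0.852). Without WT replicate 2 it was -0.048, and without WT replicate 1 it was 0.51. Clock, which encodes the partner of ARNTL, was the steadiest of the 10, at 79.7, 80.0 and 78.0 CPM against 79.8, 73.4 and 74.7 CPM in WT. Its highest library was 1.09 times its lowest, and the interval of its log2 fold change ran from -0.083 to 0.20.

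Per1, Per2 and Cry1 encode repressors of the CLOCK and ARNTL pair, and of these 3 Per2 had the largest difference. Per2, on chromosome 1 (91415982 to 91459324, minus strand), had 12.5, 11.8 and 11.4 CPM in the libraries labelled Lpar3-/-, against 14.45, 17.99 and 13.55 CPM in WT. The groups did not overlap. The difference did not pass over all genes, with a log2 fold change of -0.37 (SE 0.13, 95% interval -0.65 to -0.077, edgeR unadjusted p = 0.0174, adjusted p = 0.386). Without WT replicate 2 the log2 fold change was -0.23.

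Per1 did not follow Per2. Per1, which is also induced by glucocorticoids and as an immediate early gene, had 59.3, 49.4 and 59.5 CPM in the libraries labelled Lpar3-/-, against 60.8, 37.6 and 54.9 CPM in WT. WT replicate 2 was the lowest of the 6 libraries for Per1 and the highest for Per2, so the ratio of Per1 to Per2 was 2.09 there and 4.05 to 5.20 in the other libraries. The log2 fold change of Per1 was 0.13 (SE 0.15, edgeR adjusted p = 0.860), and -0.044 without WT replicate 2. Cry1, a cryptochrome gene, had 4.67, 6.23 and 6.82 CPM against 6.66, 5.68 and 5.75 CPM in WT, on 82 to 118 counts per library. Its groups overlapped, and the 95% interval of its log2 fold change ran from -0.44 to 0.38.

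Nr1d1, the REV-ERB alpha gene and the repressor of Arntl, was on average higher in the libraries labelled Lpar3-/- without passing the test. It had 66.0, 73.2 and 81.1 CPM there, against 46.8, 62.2 and 67.9 CPM in WT. The lowest library labelled Lpar3-/- lay just under the highest WT library. Its log2 fold change of 0.32 had an SE of 0.12 (95% interval 0.050 to 0.59, edgeR unadjusted p = 0.0239, adjusted p = 0.429), and 0.18 without WT replicate 1. An exon of Nr1d1 overlaps one of Thra, a thyroid hormone receptor gene on the other strand, over 263 bases. The strand setting of the counting is not stated, so reads from that stretch cannot be assigned with certainty. Thra had 85.2 ± 5.71 CPM against 76.9 ± 10.3 CPM in WT (SD, n = 3 each).

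Bhlhe40 was the clock gene that fell. The gene (ENSMUSG00000030103, chromosome 6, 108660629 to 108666925, plus strand) encodes a repressor that acts at E-boxes. It had 46.5, 40.8 and 39.4 CPM in the libraries labelled Lpar3-/-, against 53.8, 70.7 and 64.7 CPM in WT. All libraries labelled Lpar3-/- lay below all WT libraries, and WT replicate 1 was the nearest to them. The means were 42.2 ± 3.74 CPM against 63.1 ± 8.58 CPM (SD, n = 3 each), a 1.49-fold lower level (log2 fold change -0.58, SE 0.10, 95% interval -0.80 to -0.35, edgeR adjusted p = 0.0405). In whole kidney, fewer cells of a type and less RNA per cell cannot be told apart.

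The direction of the Bhlhe40 difference held with any 1 library left out, but the call did not. The log2 fold change stayed between -0.68 and -0.49. The call held without WT replicate 1 (edgeR adjusted p = 0.0061), and was lost without WT replicate 2 (0.0609) or 3 (0.123) and without replicate 1 (0.0890), 2 (0.197) or 3 (0.260) labelled Lpar3-/-. It was also lost with limma-voom (adjusted p = 0.0505) and with limma on log2(FPKM + 1), where the adjusted p was 0.277. Limma on log2(FPKM + 0.1) (adjusted p = 0.243) and edgeR with a block for the replicate number (0.0584) lost it as well. The call held with DESeq2 (adjusted p = 0.000289). In edgeR it held with RLE (adjusted p = 0.0418) or upper quartile normalization (0.0382). A stricter filter (edgeR adjusted p = 0.0468) or no filter (2.90e-08) also kept it. An antisense gene, 0610040F04Rik, shares 118 bases with an exon of Bhlhe40 and had 13 to 47 counts per library, where Bhlhe40 had 648 to 1195.

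**Figure D2:**
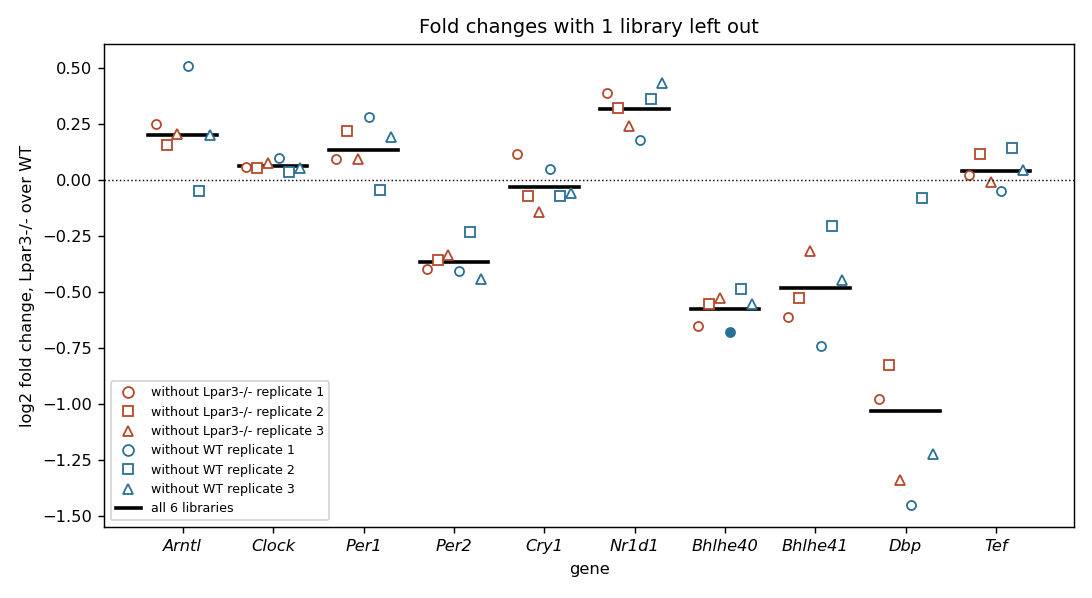
Log2 fold change of each clock gene, libraries labelled Lpar3-/- over WT (y axis), with all 6 libraries (black bars) and with each library left out (points, filled where the edgeR adjusted p was below 0.05). Bhlhe40 stays between -0.68 and -0.49, whereas Dbp moves to -0.08 without WT replicate 2.

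Markers of several cell types differed in level beside Bhlhe40, and edgeR called 0 markers of any cell type over all genes. Of all genes tested, 5.21% had an unadjusted edgeR p under 0.05 in the lower direction and 3.97% in the higher. All libraries labelled Lpar3-/- lay below WT for 7.12% of all genes and above WT for 6.58%. All 6 tested adipocyte markers of 7 had negative fold changes, 5 with an unadjusted p under 0.05. For 4 of the 6 tested, all libraries labelled Lpar3-/- lay below WT. The 7 summed to 124 to 197 CPM in the libraries labelled Lpar3-/- and 183 to 339 CPM in WT, and 0 of the 7 were at 0 counts in all libraries. WT replicate 1 had the highest adipocyte sum of the 6 libraries and the lowest Bhlhe40 of the WT libraries. All 6 macrophage markers were lower too, 3 with an unadjusted p under 0.05. For 3 of the 6 macrophage markers, all libraries labelled Lpar3-/- lay below WT. Their sums, of which Cd74 was the largest part, were 192 to 217 CPM against 213 to 439 CPM in WT, and 0 of the 6 were at 0 counts in all libraries. Of 5 fibroblast markers 4 were negative (median log2 fold change -0.35), 1 with an unadjusted p under 0.05, and they summed to 147 to 162 CPM against 133 to 237 CPM. Thick ascending limb markers ran the other way. For 3 of those 5, Umod, Slc12a1 and Egf, all libraries labelled Lpar3-/- lay above WT, 2 with an unadjusted p under 0.05 (Slc12a1, log2 fold change 0.39, and Egf, 0.29), and the 5 summed to 5687 to 5951 CPM against 4583 to 5190 CPM. An unadjusted edgeR p under 0.05 was also reached, in the lower direction, by 2 of 5 proximal tubule, 1 of 5 podocyte and 1 of 5 endothelial markers. In each of these lists, all libraries labelled Lpar3-/- lay below WT for 1 marker. The part of these cells in the Bhlhe40 difference was not tested.

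Hypoxia-inducible genes, a class to which Bhlhe40 and Bhlhe41 belong, mostly had lower levels too. Of a list of 16 others, 14 were negative on the log2 scale (median -0.27), against 7780 of all 15225 genes tested. Of the 16, 8 had an unadjusted edgeR p under 0.05, all lower, against 5.21% of all genes in that direction. EdgeR called 2 over all genes, Epo and Hmox1, where 0.25% of all genes were called lower. For 7 of the 16, all libraries labelled Lpar3-/- lay below WT, against 7.12% of all genes. Epo, the erythropoietin gene, averaged 1.06 ± 0.102 CPM against 3.65 ± 0.263 CPM in WT, and Hmox1, the heme oxygenase 1 gene, 50.5 ± 4.09 CPM against 71.7 ± 7.99 CPM (SD, n = 3 each). This list was made with the fall of Epo in these libraries known, and is not independent evidence of a direction. Both calls were lost in fits without any 1 library labelled Lpar3-/-, where edgeR called 0 of the 16.

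Bhlhe41, the paralog of Bhlhe40, was too low for a precise value. It had 45, 37 and 29 counts in the libraries labelled Lpar3-/-, against 33, 70 and 53 in WT, or 2.56, 2.33 and 1.68 CPM against 1.86, 4.14 and 3.21 CPM. The groups overlapped because WT replicate 1 was lower than replicates 1 and 2 labelled Lpar3-/-. Its log2 fold change of -0.48 had an SE of 0.32 (95% interval -1.18 to 0.21, edgeR adjusted p = 0.723), so a change of the size seen in Bhlhe40 lies inside its interval. It was -0.74 without WT replicate 1 (edgeR unadjusted p = 0.0265, adjusted p = 0.334) and -0.21 without WT replicate 2 (adjusted p = 0.913). An exon of Bhlhe41 shares 1280 bases with the unclassified gene Gm43909, which had at most 5 counts in a library.

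Dbp, an output gene that encodes a D-box activator, varied most between libraries. It had 7.63, 5.67 and 11.4 CPM in the libraries labelled Lpar3-/-, against 5.59, 33.3 and 12.0 CPM in WT. WT held both the lowest and the highest library, with WT replicate 2 far above the others, and the highest was 5.96 times the lowest. The log2 fold change of -1.03 did not pass (SE 0.49, 95% interval -2.09 to 0.029, edgeR adjusted p = 0.562). Without WT replicate 2 it was -0.08. An exon of Dbp overlaps one of Sphk2 on the other strand over 539 bases. Sphk2 had 56.6 ± 4.46 CPM against 54.5 ± 2.74 CPM in WT, and its WT replicate 2 value, 52.0 CPM, was the lowest of the 6.

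Tef, which encodes a relative of DBP, was far more even. It had 244, 213 and 255 CPM in the libraries labelled Lpar3-/-, against 199.9, 262 and 229.8 CPM in WT. The groups overlapped, the highest library was 1.31 times the lowest, and the 95% interval of the log2 fold change ran from -0.18 to 0.26 (edgeR adjusted p = 0.95).

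**Figure D3:**
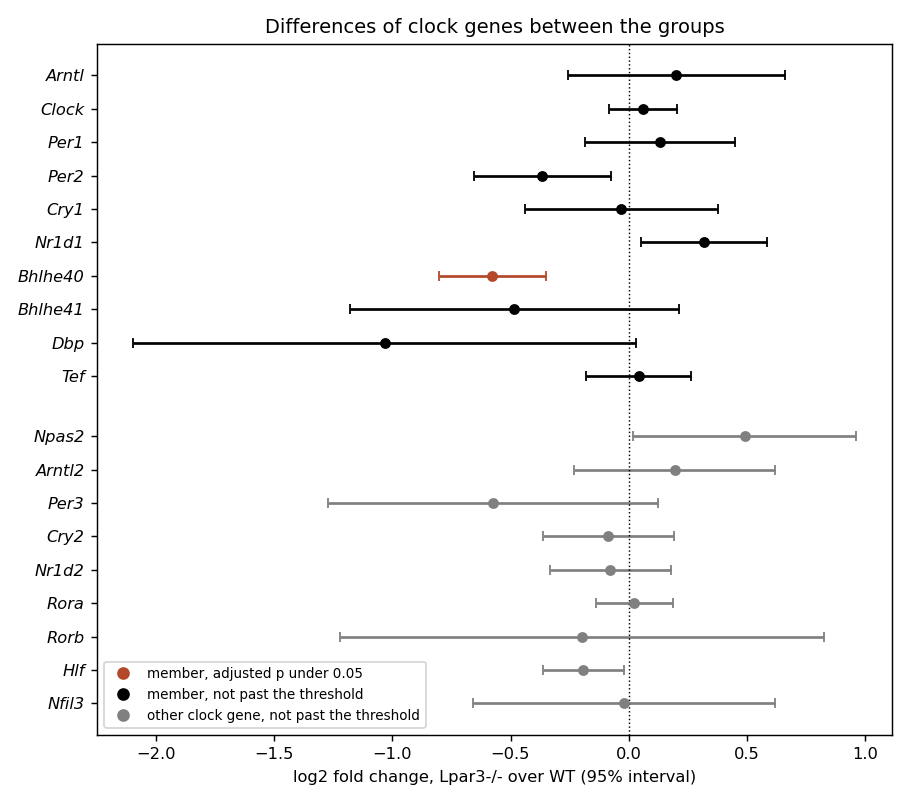
Log2 fold change of the 10 clock genes and of 9 other clock genes, libraries labelled Lpar3-/- over WT (x axis), with 95% intervals from edgeR. Bhlhe40, at -0.58, is the gene past the threshold, and Dbp, at -1.03, has the widest interval of the 10 members.

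The libraries differed in the ratio of Dbp to Arntl, and WT spanned the whole range of that ratio. WT did not span the whole range of the ratios of Per2 to Arntl or of Per1 to Per2. The ratio of Dbp to Arntl in CPM was 0.370, 0.241 and 0.518 in replicates 1 to 3 labelled Lpar3-/-, against 0.211, 2.79 and 0.627 in WT. WT replicate 1 had the lowest ratio and WT replicate 2 the highest, 13.2 times as high. The 3 libraries labelled Lpar3-/- lay between them. Dbp and Arntl moved in opposite directions over the 6 libraries (Pearson r = -0.95, Spearman rho = -0.94), and the r was -0.66 over the 4 libraries left without WT replicates 1 and 2. These are descriptions of 6 libraries from both groups, chosen after their values were seen, and no p is given.

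Some clock genes outside the 10 showed the same split of the WT libraries. Npas2, a paralog of Clock, had 19.5, 23.6 and 19.6 CPM in the libraries labelled Lpar3-/-, against 20.8, 9.41 and 14.3 CPM in WT. Nfil3, a repressor at D-boxes, had 18.6, 19.5 and 14.4 CPM against 27.7, 8.99 and 16.5 CPM. Per3 ran the other way, with 4.95, 4.09 and 8.55 CPM against 4.91, 12.0 and 9.37 CPM in WT. For Npas2 and Nfil3, as for Arntl, WT replicate 2 was the lowest library, and for Per3, as for Dbp, it was the highest. The r of Npas2 with Arntl was 0.95 and that of Per3 with Dbp 0.92 (n = 6 libraries). Nfil3 is shown because of its values in WT replicates 1 and 2.

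**Figure D4:**
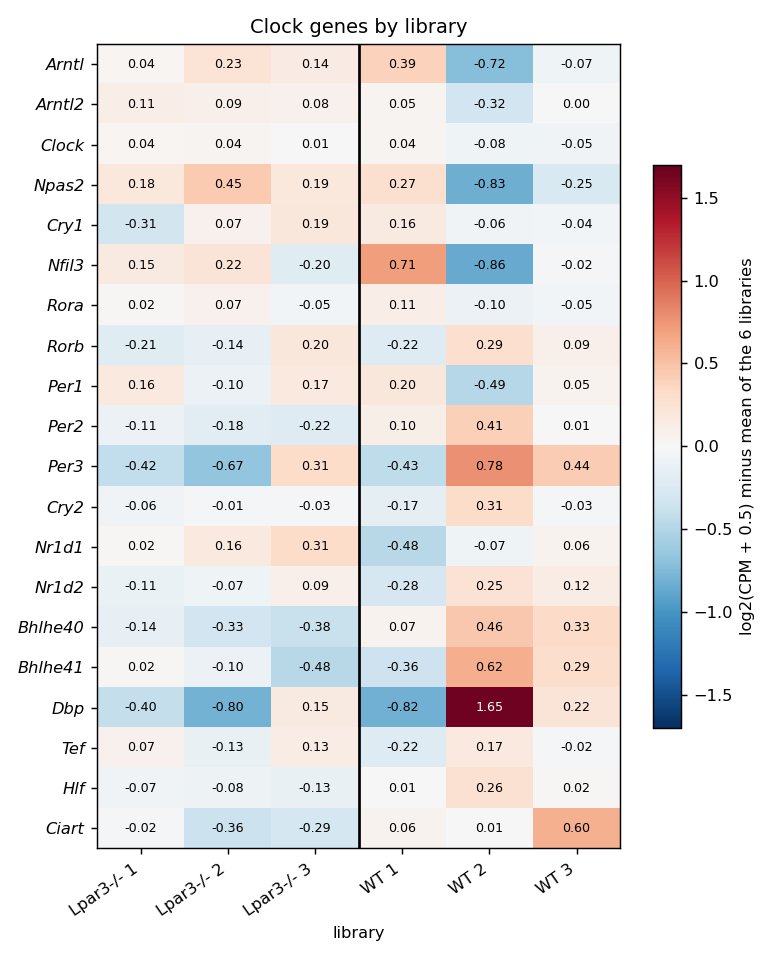
Level of 20 clock genes (rows) in each library (columns), as log2(CPM + 0.5) minus the mean of the 6 libraries, with the value in each cell. WT replicate 2 is at 1.65 for Dbp and -0.72 for Arntl, and WT replicate 1 is at -0.82 for Dbp and 0.39 for Arntl.

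Spread was lower in the libraries labelled Lpar3-/- for most clock genes. Of the 10, 9 had a smaller SD of log2(CPM + 0.5) there than in WT, against 60.9% of all genes tested. The median SD over the 10 was 0.14 in the libraries labelled Lpar3-/- and 0.24 in WT, and over all genes 0.11 and 0.14. For 4 of the 10 all libraries labelled Lpar3-/- lay inside the WT range, against 24.2% of all genes. WT replicate 2 was the highest or the lowest library for 8 of the 10, and several of these genes moved together. The 9 are therefore not independent of each other. The difference in spread was not tested. With all 6 libraries, Per2 and Bhlhe40 ranked nearly alike (r = 0.89, rho = 0.94, n = 6 libraries, which include the difference between the groups).

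**Figure D5:**
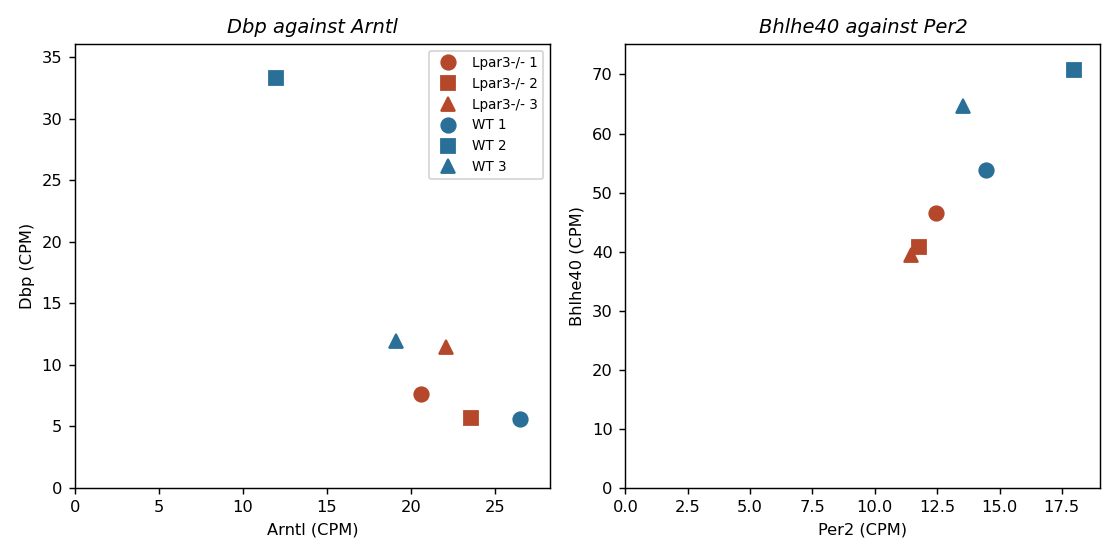
Dbp against Arntl (left) and Bhlhe40 against Per2 (right), in CPM, 1 point per library, both axes from 0. WT replicate 2 lies at 12.0 CPM of Arntl and 33.3 CPM of Dbp, apart from the other 5 libraries, and the libraries labelled Lpar3-/- are the 3 lowest for both Per2 and Bhlhe40.

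Of the 11 other clock genes, 10 were tested and edgeR called 0, as did DESeq2 and limma-voom. An unadjusted edgeR p under 0.05 was reached by 2. Hlf, the third D-box activator of its family, had 139.5, 138 and 133 CPM in the libraries labelled Lpar3-/-, against 147, 174 and 148 CPM in WT. Its groups did not overlap (log2 fold change -0.19, SE 0.079, edgeR unadjusted p = 0.0325, adjusted p = 0.482). Groups without overlap were seen for 2 of the 10 tested, Hlf below WT and Arntl2 above. Over all genes, 7.12% lay below WT in this way and 6.58% above. Npas2 had a log2 fold change of 0.49 (SE 0.22, edgeR unadjusted p = 0.0435, adjusted p = 0.527) and Per3 -0.57 (SE 0.32). Ciart, a repressor of the CLOCK and ARNTL pair, had 4 to 16 counts per library and was not tested. The median over the 10 was -0.049, against -0.0036 over all genes.

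Genes that modify the clock proteins differed little. All 13 were tested, and 0 were called by edgeR, by DESeq2 or by limma-voom. At an unadjusted edgeR p under 0.05 the count was also 0. The median of their log2 fold changes was 0.0006. Cirbp, a cold-inducible RNA-binding protein gene, had the lowest p (88.4 ± 4.99 CPM against 76.8 ± 10.3 CPM in WT, SD, n = 3 each). Its WT replicate 2, at 65.1 CPM, was the lowest library. Timeless (4.24 ± 0.694 against 4.84 ± 0.331 CPM) and Sirt1, a deacetylase gene (24.6 ± 1.55 against 26.2 ± 1.28 CPM), overlapped between the groups.

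Among 12 genes known as clock outputs, 11 were tested and 1 was called, against 0.374% of all genes (0.125% in the higher direction). Cyp2a5, a cytochrome P450 gene that DBP is known to regulate in mouse liver, rose to 200.1, 217 and 218 CPM in the libraries labelled Lpar3-/-, against 95.05, 100.3 and 85.8 CPM in WT. The groups did not overlap (log2 fold change 1.18, SE 0.077, edgeR adjusted p = 2.76e-05). Over all genes, 6.58% lay above WT in this way. Within WT, Cyp2a5 had 85.8 to 100.3 CPM and Dbp 5.59 to 33.3 CPM, and a relation between these genes was not tested. Cyp2a5 may also share reads with its close paralog Cyp2a4, which was not tested either. The other 10 tested outputs had unadjusted p-values above 0.05, and the median of the 11 was 0.043. Cyp2a5 was on this list with its rise in these libraries known.

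Because Per1 is also glucocorticoid-responsive and an immediate early gene, values of other genes of these classes are given beside it. All 10 glucocorticoid-responsive genes were tested, and 0 were called by edgeR, by DESeq2 or by limma-voom. At an unadjusted edgeR p under 0.05 the count was again 0. Their mean log2 level, relative to the mean of the 6 libraries, was 0.21 in WT replicate 1 and -0.27 in WT replicate 2, the WT libraries highest and lowest for Per1, and -0.0038 to 0.063 in the libraries labelled Lpar3-/-. Those with the lowest p were Dusp1, Mt1, Klf9 and Fkbp5, with log2 fold changes of -0.16, 0.21, 0.10 and 0.16. Of 8 immediate early genes, 7 were tested and all 7 were negative on the log2 scale (median -0.32). EdgeR called 0 and DESeq2 called 1, and 3 had an unadjusted edgeR p under 0.05, Atf3 (1.08 ± 0.256 against 3.53 ± 2.84 CPM), Nr4a1 (3.41 ± 0.456 against 5.18 ± 1.21 CPM) and Ier2 (15.96 ± 0.553 against 19.1 ± 1.62 CPM). These were lower, as were 5.21% of all genes at that p. Atf3 had 1.37, 0.882 and 0.983 CPM in the libraries labelled Lpar3-/-, against 1.19, 6.69 and 2.72 CPM in WT. Its groups overlapped, whereas those of Nr4a1 and Ier2 did not (7.12% of all genes lay below WT in this way). The fourth by p was Junb (22.1 ± 3.34 against 27.2 ± 5.62 CPM). WT replicate 2 had the highest mean level of this list, 0.55, and the lowest Per1. The relation of either list to Per1 was not tested.

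By pattern over the 6 libraries, the genes outside these lists most like Arntl were Rab27a (r = 0.99), Cnnm3 (0.99) and 1110020A21Rik (0.99), of 13959 genes with a mean of at least 1 CPM. Those most like Dbp were Ulk3 (r = 0.99), Erp44 (0.99) and Gtf3c6 (0.98). With 6 points, an r above 0.95 was reached by 41 genes for Arntl and 35 for Dbp. Rab27a had 19.6, 23.2 and 22.2 CPM in the libraries labelled Lpar3-/-, against 26.4, 13.3 and 18.8 CPM in WT, and so shared the low value of WT replicate 2. Among the other 9 clock genes, the r with Arntl ran from -0.95 for Dbp to 0.86 for Clock, and with Dbp from -0.95 for Arntl to 0.79 for Tef.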

How the data were processed

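Kidney mRNA of 6 libraries was analysed, 3 labelled Lpar3-/- and 3 labelled WT, grouped by their titles. The deposited counts are whole reads per gene, not normalized, and the deposited FPKM values were made by the authors per gene length and library. The genome build GRCm38 and the tools featureCounts 1.5.0-p3, HISAT2 2.0.5 and DESeq2 1.20.0 are named in the submitters' processing notes. Those notes, as used here, give neither strand nor annotation release nor the handling of shared reads. Of 54909 rows, 377 had no gene name (0.259% to 0.362% of counts) and were left out. The fit was edgeR 4.0.16 in R 4.3.3 (quasi-likelihood, default filter, TMM, no covariate), adjusted over 15225 genes. CPM use TMM-scaled totals. Log2 fold changes are Lpar3-/- over WT. SE were derived from the F statistic.

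The members and lists were chosen with earlier results of these data known. Named genes were all members, the called genes of each other list or else the up to 4 with the lowest p, and the 3 most correlated with Arntl and with Dbp (log2 CPM, prior count 2). A few listed genes that the rule names are counted with their lists but not reported by name here. Exons were compared in GENCODE vM21 (GRCm38), whose coordinates of the 10 genes equal the deposited ones. Alternatives were DESeq2 1.42.0, limma-voom 3.58.1, 2 other normalizations, 2 other filters, limma on log2 FPKM with a pseudocount of 1 or 0.1 (mean FPKM at least 0.1), a block for the replicate number and each library left out. The edgeR fit was tested on simulated data. A count of 3 corresponded to 0.169 to 0.189 CPM, depending on the library.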

Additional observations from a re-analysis of the deposited data

How the results depend on the processing

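Over all genes, edgeR called 19 higher and 38 lower under the label Lpar3-/-, and the edgeR calls by list were 1 clock member, 0 other clock genes, 0 immediate early genes and 2 hypoxia-inducible genes. DESeq2 called 81 higher and 98 lower, 1 immediate early and 5 hypoxia-inducible genes. Without a filter on low counts the calls were 190 higher and 330 lower, 3 members, 1 other clock gene, 1 immediate early and 5 hypoxia-inducible genes. Nr1d1 (0.32, adjusted p = 0.0148) and Dbp (-1.03, adjusted p = 4.43e-10) then passed in edgeR, over 26645 genes. The groups overlapped for both genes. For Dbp, WT held the highest and the lowest library. In the filtered fit without WT replicate 2, the log2 fold change of Dbp was -0.08. limma-voom called 0 members and 1 hypoxia-inducible gene, and the stricter filter 1 hypoxia-inducible gene. On log2(FPKM + 1) limma called 4 higher and 5 lower, and on log2(FPKM + 0.1) 7 higher and 6 lower, with 0 members and 1 hypoxia-inducible gene in both. Bhlhe40 did not pass with limma-voom (-0.57), log2(FPKM + 1) (-0.52) or log2(FPKM + 0.1) (-0.56). The cause was not tested.

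With the replicate number as a block, edgeR called 29 higher, 0 members and 1 hypoxia-inducible gene, and Bhlhe40 was at -0.57 (adjusted p = 0.0584). The numbers share no source in the labels. Same-numbered libraries deviated together with r of 0.0026, 0.0051 and 0.051, and not every library correlated best with its own number.

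With each library left out, 7 to 63 genes were higher and 5 to 86 lower, with 0 to 1 members, 0 to 1 immediate early genes and 0 to 2 hypoxia-inducible genes called. The log2 fold changes ran from -0.68 to -0.49 for Bhlhe40, and 4 uncalled members changed sign: Arntl (-0.048 to 0.51), Per1 (-0.044 to 0.28), Cry1 (-0.15 to 0.12) and Tef (-0.051 to 0.14). Dbp ran from -1.45 without WT replicate 1 to -0.08 without WT replicate 2. At 29 to 70 counts per library, Bhlhe41 had an interval too wide to place a change of the size of Bhlhe40's.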
